A study of Homo sapiens with 6 samples.

Results

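The genes described here carry a CD number as their symbol, such as CD4, CD33 or CD38. CD stands for cluster of differentiation, the scheme that numbers surface molecules of blood cells by the antibodies that bind them. Their RNA was compared in MOLM-13, a long-established cell line from a human acute myeloid leukaemia of monocytic type, grown with 50 nM DEG-35 or with DMSO (the solvent control), each for 24 h. The line is labelled wild type, each group has 3 RNA-seq libraries, and the labels do not tell whether each is its own culture; if not, the spread behind the p-values is only technical. DEG-35 is named by the study as a degrader of the transcription factor IKZF2 and of the kinase CK1A. The members were chosen by their symbol (CD, digits, then nothing or letters and digits) and by being in the authors' deposited table, which holds only genes with an adjusted p below 0.05. CD74, CD2AP and CD2BP2 are in the table but were left out by the rule. That gave 30 genes of 6831 in the table. RefSeq has 88 protein-coding genes with such symbols, of which 29 are in the table, and the other member, CD3EAP, is in RefSeq as POLR1G.

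CD molecules have no common structure or task. They include adhesion molecules, receptors that carry activating or inhibitory signals, enzymes, transporters, protectors against complement and the tetraspanins, which gather other proteins into membrane domains. On monocytic leukaemia cells they serve to type the cells by flow cytometry, and several, among them CD33, CD38, CD44, CD52 and CD70, are or have been targets of therapeutic antibodies. The deposited values are RNA values, so surface protein was not measured. In such bulk samples fewer cells of a type and less RNA per cell cannot be told apart.

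For each gene the authors' deposited table gives the log2 fold change with its raw and adjusted p, and no level or value for a single library. Its header does not name the numerator. Positive values were taken to mean more RNA with DEG-35; if the authors divided the other way, every direction below turns round. Depth is unknown. The error given beside a log2 fold change is the standard error implied by it and its p-value (implied SE). Since presence in the table chose the members, the values are a description of these genes and were not tested again.

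CD-named genes that were listed were mostly higher with DEG-35. The authors' deposited table has 24 of the 30 as higher and 6 as lower, and their median log2 fold change was 0.72. Of all listed genes, 47.1% were higher and the median was -0.19. The table holds 45.3% of the genes that its adjusted p-values imply were tested, 21.4% as higher and 24.0% as lower. All 30 members are in it by the rule, so nothing is read from that share. If all values were shifted up by 0.3, 28 members would be higher and 2 lower, and shifted down, 22 higher and 8 lower. The directions of CD164, CD93, CD302, CD81, CD151 and CD3EAP, and of any other gene given with a size under 0.3, thus depend on the authors' scaling. The protein-coding CD-named genes of RefSeq that are not in the table did not pass or were not tested. They include CD9, CD14, CD34, CD46, CD47, CD55, CD63, CD82, CD83, CD99 and CD274.

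Of the 24 higher members 11 rose by at least 1 on the log2 scale. A log2 fold change of 1 or more in size was given to 12 of the 30 members (40%) in the authors' deposited table, against 18.3% of all listed genes. The share of all genes tested was 8.30%, but since only genes that passed could be members, their 40% is not read against it. Of the 88 CD-named protein-coding genes of RefSeq, tested or not, the same 12 are 13.6%. Among members with an implied SE of at most 0.2 the count was 6 of 24 (25%), against 11.6% of listed genes within that limit. Of the 12, CD6, CD84, CD180, CD86, CD52, CD38, CD300LB, CD209, CD48, CD37 and CD59 were higher and CD247 was lower. The higher members had a median of 0.96 and the lower ones of -0.29. CD247 alone fell by more than 1 on the log2 scale, and next to it CD320 stood at -0.75 ± 0.129 in the authors' deposited table.

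**Figure D1:**
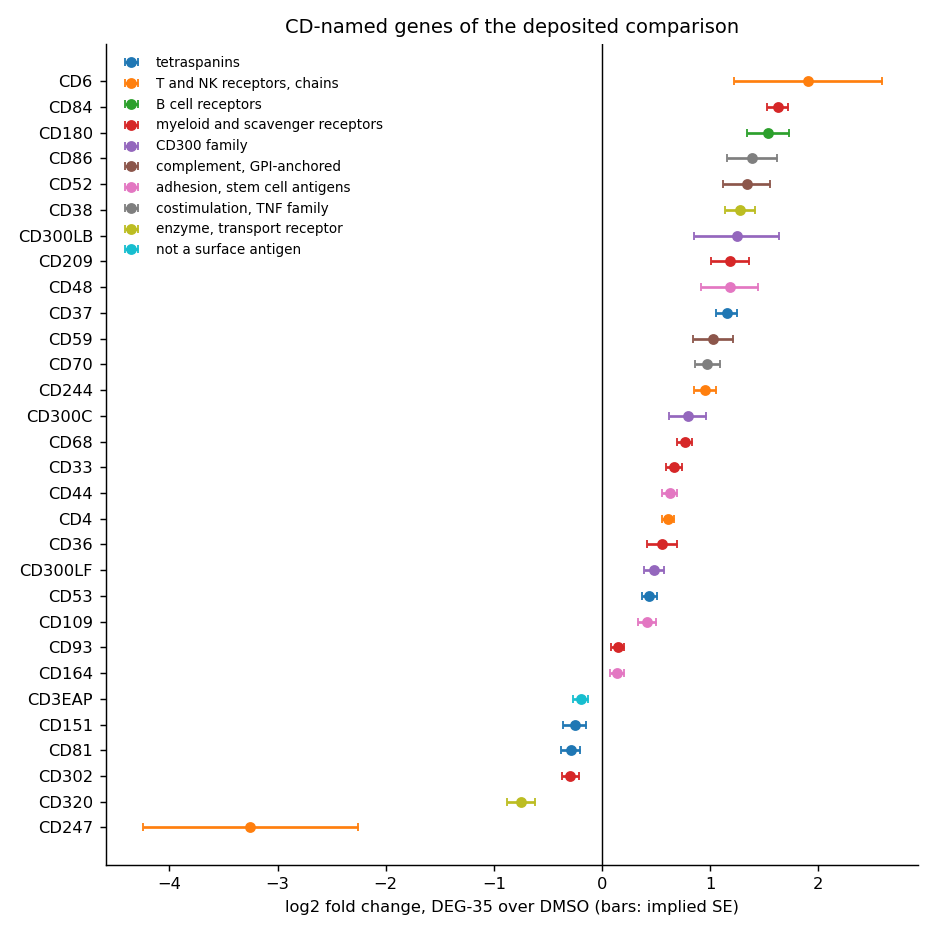
Log2 fold change of each of the 30 CD-named genes with DEG-35 over DMSO (x axis), ordered by value, with bars for the implied SE and colours for the role of the gene. The 24 higher genes run from CD164 at 0.14 to CD6 at 1.90, and the 6 lower genes from CD3EAP at -0.20 to CD247 at -3.25; with all values shifted by 0.3, the 6 genes nearest 0 change sides.

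**Figure D2:**
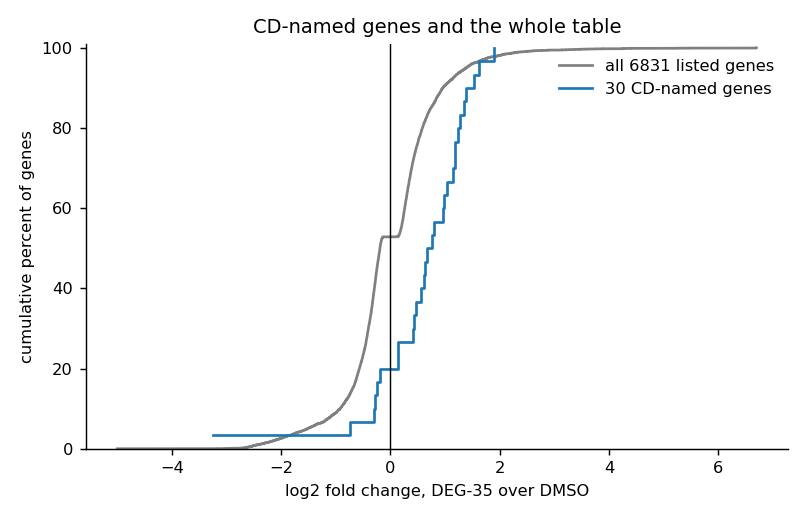
Cumulative percent of genes (y axis) by log2 fold change with DEG-35 over DMSO (x axis) for all 6831 listed genes (grey) and the 30 CD-named genes (blue). At 0 the CD-named curve stands at its 6 lower genes, and its median of 0.72 lies to the right of the whole table's median of -0.19; the flat part of the grey curve is there because the table lists no gene that missed the threshold.

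The 2 extreme members were also the least precise. CD6, a scavenger-type receptor of T cells, was 3.74-fold higher (1.90 ± 0.681, adjusted p = 0.0136 in the authors' deposited table), with a 95% interval of 0.57 to 3.24. CD247, the zeta signalling chain of the T cell receptor and of some Fc receptors, was 9.53-fold lower (-3.25 ± 0.995, adjusted p = 0.00334 in the authors' deposited table), with an interval of -5.20 to -1.30. The interval of CD6 covers the values of most other higher members, so its place at the top is not firm. The interval of CD247 covers no other member. Without both genes 23 members were higher and 5 lower, and the median stayed at 0.72. Over all members the implied SE had a median of 0.106, against 0.0891 in the whole table, and 6 of 30 (20%) were above 0.2, against 12.8% of the table. Those 6 were CD247, CD6, CD300LB, CD48, CD86 and CD52.

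**Figure D3:**
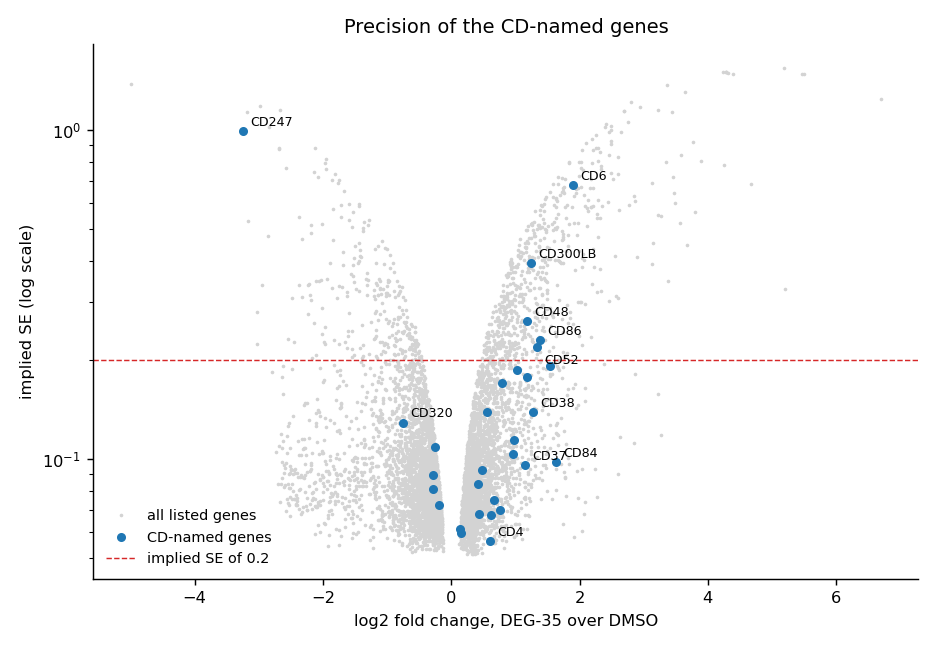
Implied SE on a log scale (y axis) against log2 fold change with DEG-35 over DMSO (x axis) for all listed genes with a p-value above 0 (grey) and the CD-named genes (blue); the dashed line marks an implied SE of 0.2. CD84 and CD37 combine a change above 1 with an implied SE below 0.1, whereas CD247 and CD6 lie at the imprecise upper edge.

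The member with the smallest adjusted p was CD84, a receptor of the SLAM family, whose members sit on blood cells and mostly bind their own kind on a neighbouring cell. The authors' deposited table has CD84 as 3.09-fold higher (log2 fold change 1.63 ± 0.0976, adjusted p = 1.49e-60). The SLAM family had 2 further CD-named members, which are receptor and ligand of each other. The receptor gene CD244, known from natural killer cells and monocytes, was 1.94-fold higher (0.96 ± 0.103 in the authors' deposited table). Its ligand CD48, a protein with a lipid (GPI) anchor, was 2.27-fold higher (1.18 ± 0.262, adjusted p = 2.99e-05 in the authors' deposited table). These 3 genes lie near each other on chromosome 1, among other SLAM genes.

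The other genes of that family had the same direction where they were listed. The family list was made after the values had been seen. Of 9 SLAM family genes 7 were in the authors' deposited table, all 7 higher, and their median was 1.18. Of all tested genes 45.3% were listed and 21.4% higher. CD84, CD48 and CD244 are listed by the rule, so the count is not read against those shares. An implied SE above 0.2 was found for 4 of the 7. Without a CD symbol, SLAMF1 stood at 0.99 ± 0.193, LY9 at 0.92 ± 0.282 and SLAMF9 at 1.19 ± 0.452 in the authors' deposited table. SLAMF6, at 2.41 ± 1.04 in the authors' deposited table, was close to the threshold (adjusted p = 0.0474). SLAMF7 and SLAMF8 were not listed, and neither were the adaptor genes SH2D1A and SH2D1B, whose products bind the tails of these receptors. Along the chromosome, 7 of the 10 protein-coding genes from SLAMF6 to F11R were listed and all 7 were higher. CD84, CD48 and CD244 are among these 7 too. The stretch was not fixed before the values were seen, and it begins and ends on genes listed as higher. This count is thus not read against those shares either. F11R, which codes for the junctional adhesion molecule JAM-A, stood at 0.94 ± 0.0702 in the authors' deposited table, while ITLN1 and ITLN2 between it and CD244 were not listed.

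The CD300 genes on chromosome 17 gave 3 members, all higher. They code for related immunoglobulin-type receptors of myeloid cells. CD300LB, an activating receptor, was 2.37-fold higher (1.24 ± 0.395, adjusted p = 0.00478 in the authors' deposited table). CD300C, another activating member, stood at 0.79 ± 0.170, and the inhibitory CD300LF at 0.48 ± 0.0924 in the authors' deposited table. CD300A, CD300E, CD300LD and CD300LG of the fixed list were not listed. The listed share of that list, 42.9%, was near the 45.3% of all tested genes (21.4% higher), and nothing is read from it. CD300A and CD300C have closely related sequences, and the sources used here do not say how reads common to both were assigned. RAB37, a small GTPase gene, comes between CD300E and CD300LF when genes are ordered by their lowest chromosome position. That order does not show whether genes overlap. RAB37 stood at 1.48 ± 0.0940 in the authors' deposited table, above all 3 receptors.

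**Figure D4:**
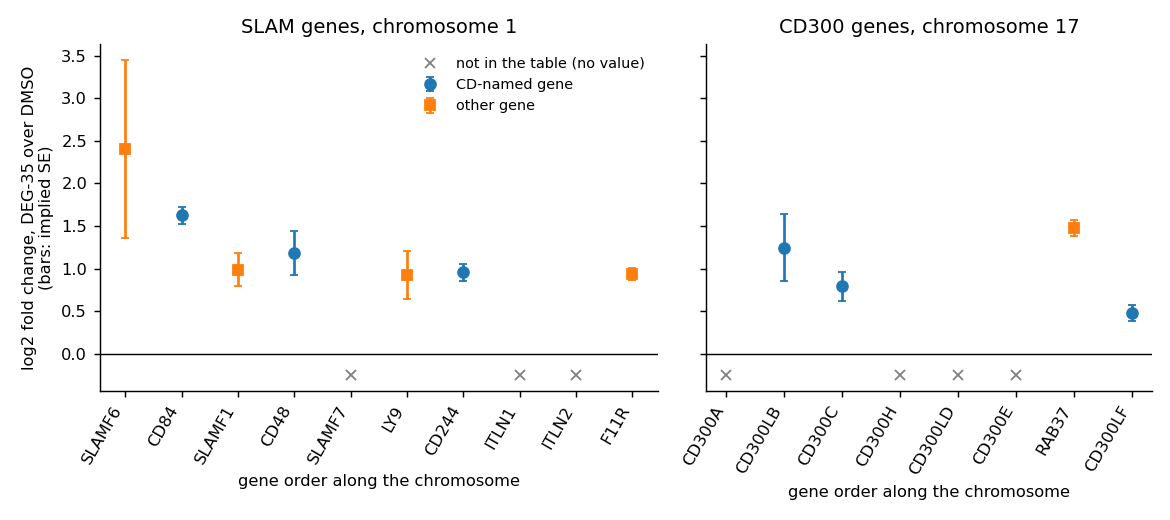
Log2 fold change with DEG-35 over DMSO (y axis, bars for the implied SE) of protein-coding genes in their order along the chromosome at the SLAM genes (left) and the CD300 genes (right); crosses, set at an arbitrary height below 0, mark genes with no value because they are not in the table. All 7 listed genes at the SLAM genes and all 4 at the CD300 genes lie above 0. The SLAM stretch was not fixed before the values were seen, and it begins and ends on listed genes.

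Promoter sequence was looked at because members of several families were higher together. RefSeq (GRCh38.p14) promoter sequences were matched for 20 of the 30 members, using the 250 bases before each gene's most upstream start. Only 4 of these 20 windows held no annotated exon, so the member counts below come mostly from windows with exon sequence. 3 motifs were searched on both strands: GAGGAA and GGAAGT, forms of the core bound by ETS factors such as PU.1 (the motifs can overlap), and the p53 half-site. GAGGAA was in 7 of 20 member windows (35%) and in 23.4% of all 27305 RefSeq windows of that length. GGAAGT was in 8 of 20 (40%) and in 19.9%, and the p53 half-site in 2 of 20 (10%), those of CD33 and CD164, and in 5.50%. A match is a run of letters and not evidence of binding, and with 20 windows no difference is read from these shares.

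The 4 windows without an annotated exon are shown, all from members that were higher and 1 of them (CD244) with no match. Capitals mark the matches, each sequence reads 5′ to 3′ on the strand of its gene, and positions are on GRCh38.p14. CD180 (chr5:67196800-67197049, minus strand) has GGAAGT on the opposite strand, beginning 33 bases before the start. CD86 (chr3:122055112-122055361, plus strand) has GAGGAA 76 bases (opposite strand) and 43 bases before the start. CD300LB (chr17:74531476-74531725, minus strand) has GGAAGT 22 bases before the start, and the CD244 window is chr1:160862888-160863137, minus strand.
CD180: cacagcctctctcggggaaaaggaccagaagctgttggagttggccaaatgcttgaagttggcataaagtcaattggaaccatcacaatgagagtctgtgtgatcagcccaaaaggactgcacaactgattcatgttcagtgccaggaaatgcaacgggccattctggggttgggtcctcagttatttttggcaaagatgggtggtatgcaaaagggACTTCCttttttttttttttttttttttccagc
CD86: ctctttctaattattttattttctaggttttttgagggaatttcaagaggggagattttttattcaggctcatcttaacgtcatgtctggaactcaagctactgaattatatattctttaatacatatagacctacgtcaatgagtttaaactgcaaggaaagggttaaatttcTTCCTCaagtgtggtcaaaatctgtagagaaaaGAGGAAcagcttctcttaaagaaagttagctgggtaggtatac
CD300LB: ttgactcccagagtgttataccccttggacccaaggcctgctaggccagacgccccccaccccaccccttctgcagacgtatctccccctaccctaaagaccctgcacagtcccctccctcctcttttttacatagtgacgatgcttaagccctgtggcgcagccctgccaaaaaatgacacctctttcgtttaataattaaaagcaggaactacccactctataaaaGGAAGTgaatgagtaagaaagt
CD244: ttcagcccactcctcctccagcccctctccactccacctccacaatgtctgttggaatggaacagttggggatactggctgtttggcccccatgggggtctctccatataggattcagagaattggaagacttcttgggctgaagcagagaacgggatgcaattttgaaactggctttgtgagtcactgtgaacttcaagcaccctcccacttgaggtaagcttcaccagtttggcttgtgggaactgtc

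Myeloid and scavenger receptors gave the most members, with 7 of 14 genes listed, 6 higher and 1 lower (median 0.67). Over all tested genes 45.3% were listed and 21.4% higher. The listed share of this list, 50%, was near that of all tested genes, and nothing is read from it. Of the 7, CD93 and CD302 would change sides with a shift of 0.3. Besides CD84 the largest was CD209 (DC-SIGN), a lectin of dendritic cells and macrophages, 2.27-fold higher (1.18 ± 0.177, adjusted p = 2.16e-10 in the authors' deposited table). CD209 has a close relative, CLEC4M, with which it may share reads. The lysosomal glycoprotein gene CD68, a usual macrophage marker, was 1.70-fold higher (0.76 ± 0.0700, adjusted p = 2.64e-26 in the authors' deposited table). CD33, the sialic acid-binding inhibitory receptor that marks myeloid cells, was 1.59-fold higher (0.67 ± 0.0749, adjusted p = 8.72e-18 in the authors' deposited table). CD36, which takes up oxidised lipoproteins and fatty acids, stood at 0.56 ± 0.139 in the authors' deposited table. CD93, a lectin-like receptor of monocytes and endothelium, stood at only 0.15 ± 0.0595 (adjusted p = 0.0338 in the authors' deposited table). CD14, CD101, CD163, CD163L1, CD177, CD207 and CD5L did not pass or were not tested.

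CD302, a lectin receptor, was the lower member of this group, 1.22-fold lower (-0.29 ± 0.0808, adjusted p = 0.00105 in the authors' deposited table). Its exons also belong to the read-through gene LY75-CD302 on the same strand, which stood at 0.26 ± 0.0698 in the authors' deposited table. The upstream gene LY75 (DEC-205) was higher too, at 0.60 ± 0.0695 in the authors' deposited table. The table thus gives opposite signs to CD302 and to a transcript that contains it. Both values are under 0.3 in size, so with all values shifted by 0.3 either way the signs would be the same. The part of read assignment in these values was not tested.

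Of 17 T and natural killer cell genes 4 (23.5%) were listed, against 45.3% of all tested genes, though how many of the 17 were tested is unknown. CD6, CD244 and CD4 were higher and CD247 was lower. CD4, which monocytes carry as well as helper T cells, had the smallest implied SE of all members and was 1.53-fold higher (0.61 ± 0.0561 in the authors' deposited table). CD2, CD3D, CD3E, CD3G, CD5, CD7, CD8A, CD8B, CD28, CD96, CD160, CD226 and CD8B2 were not listed. Of 6 B cell genes only CD180 was listed, a toll-like receptor homologue without a signalling domain that is also found on monocytes. It was 2.89-fold higher (1.53 ± 0.192, adjusted p = 1.67e-14 in the authors' deposited table). CD22, CD72, CD79A and CD79B were among those not listed, and neither was any of the 5 CD1 genes, which present lipids to T cells.

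A list of 9 genes held complement regulators, "don't eat me" signals and others such as CD52. Of these 9, CD52 and CD59 were listed, and of 10 of the costimulation, checkpoint and TNF family, CD86 and CD70, all 4 higher. The listed shares were 22.2% and 20%. Over all tested genes 45.3% were listed and 21.4% higher, though how many genes of either list were tested is unknown. CD52, a short peptide that carries a large sugar chain, was 2.53-fold higher (1.34 ± 0.218, adjusted p = 6.35e-09 in the authors' deposited table). CD59, which blocks the membrane attack complex of complement, was 2.04-fold higher (1.03 ± 0.186, adjusted p = 2.02e-07 in the authors' deposited table). The complement regulators CD46 and CD55 and the "don't eat me" signals CD47 and CD24 were not listed. CD86, a ligand of CD28 and CTLA-4 on antigen-presenting cells, was 2.61-fold higher (1.39 ± 0.230, adjusted p = 1.17e-08 in the authors' deposited table). CD70, the ligand of CD27, was 1.96-fold higher (0.97 ± 0.114, adjusted p = 1.96e-16 in the authors' deposited table). A further 8 genes of the costimulation, checkpoint and TNF family list, among them CD40, CD80, CD274 and CD276, were not listed.

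Adhesion and stem cell antigen genes were higher where listed. The hyaluronan receptor gene CD44 was 1.54-fold higher (0.62 ± 0.0675 in the authors' deposited table). CD109, a GPI-anchored binder of TGF-beta, stood at 0.42 ± 0.0837 in the authors' deposited table. The sialomucin gene CD164, an adhesion molecule of blood progenitors, was the member nearest the threshold, at 0.14 ± 0.0611 (adjusted p = 0.0495 in the authors' deposited table). Genes just outside the threshold have no values here. With CD48, 4 of 11 genes of this list (36.4%) were in the table and all 4 were higher. CD164 would be lower with all values shifted down by 0.3, and the stem cell antigen gene CD34 was not listed. Over all tested genes 45.3% were listed and 21.4% higher, though how many of the 11 were tested is unknown. CD44 binds the actin cytoskeleton through ezrin, radixin and moesin. EZR stood at -0.66 ± 0.0585, RDX at -0.42 ± 0.0775 and MSN at 0.19 ± 0.0533 in the authors' deposited table. As given, the 3 linker genes did not move in 1 direction, but MSN would be lower too with all values shifted down by 0.3.

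The tetraspanins divided. Of 7 CD-named tetraspanins 4 (57.1%) were listed, against 45.3% of all tested genes, and nothing is read from that share. The leukocyte members CD37 and CD53 were higher, CD37 2.23-fold (1.15 ± 0.0955, adjusted p = 3.32e-32) and CD53 at 0.44 ± 0.0680 in the authors' deposited table. The widely expressed CD81, which associates with other membrane receptors, and CD151, a partner of laminin-binding integrins, were lower, but would be higher with all values shifted up by 0.3. CD81 stood at -0.29 ± 0.0890 (adjusted p = 0.00371) and CD151 at -0.25 ± 0.108 (adjusted p = 0.0431, near the threshold) in the authors' deposited table. The exons of CD151 overlap those of POLR2L on the other strand, which stood at -0.64 ± 0.219 in the authors' deposited table, and the sources used here do not say whether reads were counted by strand. Among 26 tetraspanin genes without a CD symbol 6 (23.1%) were listed, 2 higher and 4 lower, against 45.3% of all tested genes listed. TSPAN31 at 0.93 ± 0.0898 and TSPAN32 at 0.71 ± 0.174 were higher, and TSPAN4 at -0.86 ± 0.229 and TSPAN3 at -0.26 ± 0.0899 lower, in the authors' deposited table. The integrin alpha-6 gene ITGA6, whose product CD151 binds, stood at 1.26 ± 0.0997 in the authors' deposited table, while ITGA3 and ITGB1 were not listed.

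An enzyme and a transport receptor went opposite ways. CD38, the surface enzyme that consumes NAD, was 2.43-fold higher (1.28 ± 0.139, adjusted p = 3.94e-19 in the authors' deposited table). CD320, the receptor that takes up vitamin B12 bound to transcobalamin, was 1.68-fold lower (-0.75 ± 0.129, adjusted p = 4.59e-08 in the authors' deposited table). TCN2, the gene of transcobalamin, was not listed. CD3EAP, 1.15-fold lower (-0.20 ± 0.0725, adjusted p = 0.0165 in the authors' deposited table), matches the naming rule but codes for a subunit of RNA polymerase I and is no surface antigen. Without it 24 members were higher and 5 lower.

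Signalling partners of these receptors were counted from a list of 26 ITAM-bearing chains with their kinases, phosphatases and adaptors, not including CD247. ITAMs are the tyrosine motifs through which activating receptors signal. Of the 26 genes 11 (42.3%) were listed, 8 higher and 3 lower, and their median was 0.49. The listed share was near the 45.3% of all tested genes, and nothing is read from it. The ITAM adaptor gene TYROBP (DAP12), which serves activating myeloid receptors such as CD300LB, stood at 1.53 ± 0.212 in the authors' deposited table, whereas FCER1G was not listed. The adaptor gene FYB stood at 1.33 ± 0.101, the phosphatase gene PTPN6 at 0.62 ± 0.0701 and PLCG2 at 0.51 ± 0.0598 in the authors' deposited table. PLCG1 was lower at -0.67 ± 0.0828 in the authors' deposited table. Thus TYROBP, the only ITAM chain of this list in the table, was higher, while CD247, the least precise member (-3.25 ± 0.995), was lower. CD3D, CD3E, CD3G, CD79A and CD79B were not listed.

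Many CD antigens have another gene symbol, and these were also mostly higher where listed. Over 3 lists together 50 of 129 genes (38.8%) were in the authors' deposited table, 37 higher and 13 lower, and their median was 0.51. Shifted down by 0.3, these would be 32 higher and 18 lower. The listed share was below the 45.3% of all tested genes, though how many of the 129 were tested is unknown. Of 44 myeloid and progenitor antigens 13 (29.5%) were listed, 12 of them higher and the median 0.95. Of all tested genes 45.3% were listed and 21.4% higher. The integrin genes ITGAL (CD11a) at 1.10 ± 0.0570 and ITGAM (CD11b) at 1.47 ± 0.0956 were among the higher antigens in the authors' deposited table. The inhibitory receptor genes LAIR1 (CD305) at 0.86 ± 0.0561 and LILRB4 (CD85k) at 1.24 ± 0.0820 were others in the authors' deposited table. FUT4, the enzyme that makes the CD15 sugar, was the lower one at -0.23 ± 0.0596 in the authors' deposited table.

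Of 39 adhesion and migration antigens 15 (38.5%) were listed, 10 higher and 5 lower (median 0.74), against 45.3% of all tested genes listed. SELPLG (CD162), the selectin ligand, stood at 1.32 ± 0.0873 and the chemokine receptor gene CCR2 (CD192) at 0.97 ± 0.109 in the authors' deposited table. NCAM1 (CD56) was lower at -0.64 ± 0.0745 in the authors' deposited table. ALCAM (CD166), the ligand of CD6, was lower at -0.55 ± 0.0750 in the authors' deposited table. Of 46 antigens of growth, death and transport 22 (47.8%) were listed, near the share of all tested genes, 15 higher and 7 lower (median 0.26). The death receptor genes TNFRSF10B (CD262) at 1.13 ± 0.0613 and FAS (CD95) at 0.79 ± 0.0861 were higher in the authors' deposited table. The cytokine receptor gene IL7R (CD127) stood at 1.76 ± 0.122 and IL18R1 (CD218a) at -1.82 ± 0.193 in the authors' deposited table.

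**Figure D5:**
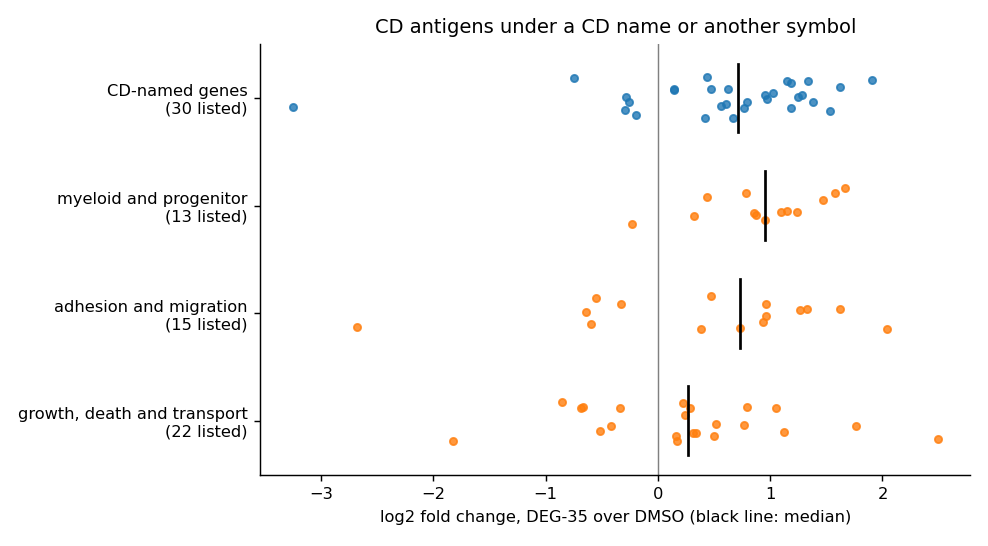
Log2 fold change with DEG-35 over DMSO (x axis) of the listed CD-named genes (blue) and of listed CD antigens under other symbols (orange), by list; each point is 1 gene, spread vertically at random for legibility, and black lines are medians. The median falls from 0.95 for myeloid and progenitor antigens to 0.26 for those of growth, death and transport, with CD-named genes at 0.72.

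Lineage markers were counted to set these values against the labelled cell type. Of 11 markers of a monocytic line 8 were listed, all 8 higher: CD33, CD4, CD68, CSF1R, FLT3, ITGAM, ITGAX and PTPRC. CD14, ANPEP and SPN were not listed. Of all tested genes 45.3% were listed and 21.4% higher. The markers were chosen with earlier results of these data known, and CD33, CD4 and CD68 are listed by the rule. The count is therefore not read against those shares. Other myeloid antigens were lower: CD302 at -0.29, FUT4 at -0.23 and THBD at -0.33 in the authors' deposited table. Of 8 T and natural killer cell markers 2 were listed, CD247 and NCAM1, both lower, CD247 being the least precise member; of the longer list of T and natural killer cell genes, 3 of the 4 listed were higher. None of 5 B cell, 3 erythroid and megakaryocyte or 3 endothelial and stromal markers was listed. The table has no levels, so it does not show how strongly any marker was expressed, and the labelled cell type was not checked further.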

How the data were processed

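Per the labels, 6 mRNA libraries were made from treated MOLM-13 cells, 3 for each group (24 h, DMSO or DEG-35 at 50 nM). The submitters' processing notes name the build hg19, STAR, featureCounts and DESeq2, with no version, option or order. The authors deposited 1 table for all genes that passed, holding per gene the log2 fold change and the raw and adjusted p-values (largest 0.0500), per the file headers. For 2789 genes with p above 1e-04, the adjusted p-values lie within 0.1% of a Benjamini-Hochberg adjustment over 15064 tests.

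Nothing could be refitted. The implied SE is the size of the log2 value over the standard normal deviate that gives the same p-value. It assumes a Wald test. A run on simulated data made the same assumption, so it checked only the calculation and not whether the assumption holds here. Intervals are 95% normal intervals from the implied SE. Members, gene lists and markers were chosen with earlier results of these data known. The SLAM list, the SLAM stretch of chromosome 1 and the CD synonyms were chosen after the values. Every member is given; for other lists the up to 4 genes of smallest adjusted p and the first against the majority, apart from items not reported here. Symbols were matched through RefSeq (GRCh38.p14), 29 members directly and 1 by synonym. Exon overlaps come from GENCODE release 29 (GRCh38): 13 members overlap another gene, and 2 of the overlapping genes are listed. With the builds differing, annotation served for names, order and overlap only; promoter positions are those of RefSeq. Alternatives were a stricter adjusted p (0.01), a minimum absolute log2 fold change of 1, Bonferroni adjustment, an implied SE of at most 0.2, shifts of all values by 0.3 and other member sets. Software was Matplotlib 3.10.9, SciPy 1.17.1, NumPy 2.4.6 and pandas 2.3.3 under Python 3.11.15.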

Additional observations from a re-analysis of the deposited data

How the results depend on the processing

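With a minimum size of 1 on the log2 scale, 11 members were higher and 1 lower (median 1.26), and the antigens under other symbols numbered 14 higher and 2 lower. With Bonferroni adjustment 1 member remained lower (CD320), the members' median was 0.96 and 23 antigens under other symbols were higher. These counts are smaller because the settings are stricter. Shifting all values up by 0.3 left 2 members lower and a median of 1.02, and shifting them down gave a median of 0.42. The shift up turned CD302 (0.0083), CD81 (0.012), CD151 (0.046) and CD3EAP (0.10) higher, and the shift down turned CD164 (-0.16) and CD93 (-0.15) lower. Taking every RefSeq gene with a CD synonym, a set added after the values were seen, gave 76 higher and 24 lower. The other counts, among them those without CD247 and CD6 (also added later), stayed within 1.5 times those reported. At an adjusted p below 0.01, 5 members were lost: CD151, CD164, CD3EAP, CD6 and CD93. No replicate could be left out, as the table has no values per library. No paired analysis was possible because of the same limit. Depth is unknown.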

Other observations

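Counting every gene to which RefSeq gives a CD designation as a synonym widened the view beyond the lists above, after the values had been seen. Of 323 such genes 100 were in the authors' deposited table, 76 higher and 24 lower, and their median was 0.55. The listed share, 31%, was below the 45.3% of all tested genes, though how many of the 323 were tested is unknown. In each direction the 5 genes of smallest adjusted p that are not described above are given. CSF3R (CD114), the receptor of granulocyte colony-stimulating factor, was 2.21-fold higher (1.15 ± 0.0849 in the authors' deposited table). IL21R (CD360), the interleukin-21 receptor, was 3.13-fold higher (1.65 ± 0.128 in the authors' deposited table). TNFSF9, the ligand of CD137, was 2.01-fold higher (1.01 ± 0.0872 in the authors' deposited table). EVI2B (CD361), a leukocyte membrane protein, was 1.97-fold higher (0.98 ± 0.0776 in the authors' deposited table), and the cytokine gene TNFSF13 (CD256, APRIL) 1.89-fold higher (0.92 ± 0.0763).

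Among the lower genes, HMMR (CD168), a hyaluronan-binding protein that also acts at the mitotic spindle, was 5.39-fold lower (-2.43 ± 0.0906, adjusted p = 3.13e-156 in the authors' deposited table), while the hyaluronan receptor gene CD44 was higher. Both chains of the amino acid transporter CD98 were lower, SLC3A2 at -0.68 ± 0.0747 and SLC7A5 at -0.72 ± 0.0937 in the authors' deposited table. The fibroblast growth factor receptor genes FGFR1 (CD331) and FGFR3 (CD333) were 1.57-fold and 2.01-fold lower in the authors' deposited table, with an implied SE of 0.0636 and 0.111 on the log2 scale.

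Of the CD names that the rule leaves out, CD74, the invariant chain of MHC class II, stood at 1.03 ± 0.0696 in the authors' deposited table. CD2AP and CD2BP2, intracellular proteins named for binding CD2, were lower at -0.33 ± 0.0838 and -0.46 ± 0.0731 in the authors' deposited table. With these 3 genes 25 were higher and 8 lower.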
